A study of Homo sapiens with 9 samples.

Results

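The HOX cluster genes encode homeodomain transcription factors and lie in 4 clusters of the human genome, HOXA, HOXB, HOXC and HOXD. Members were the genes that both expression tables list under a HOXA, HOXB, HOXC or HOXD symbol with a single locus. This gave 37 genes, among 36119 loci in the table of the knockout set and 35856 in that of the treatment set. Described here, and covered by every count of members, are 36 of them: 10 HOXA, 10 HOXB, 7 HOXC and 9 HOXD genes. HOXC4 and HOXC6 share 1 row in both tables and are described as neighbours, not as members.

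RNA was sequenced from NB4, a human cell line of acute promyelocytic leukaemia. It carries PML-RARA, a fusion of the retinoic acid (RA) receptor alpha, and differentiates towards granulocytes when RA is added. The knockout set has 2 LSD1 knockout (KO) and 2 wild-type (WT) libraries, for which no drug is named. The treatment set has 1 library for each of 5 treatments of 24 h: MC_2580 with RA at 0.01 uM (the combination), MC_2580 alone, DMSO (the vehicle), RA at 0.01 uM and RA at 1 uM. Per the labels MC_2580 inhibits LSD1, a histone demethylase; its dose is not given. The number of KO clones is not stated, and the table's headers give both KO columns the name of the same KO line, so effects of losing LSD1 and of other differences between the lines cannot be told apart. Replicates are not stated to be independent cultures, and p-values then cover only the spread among these libraries.

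Along each cluster the paralog number runs from 1 (anterior) to 13 (posterior), and in the embryo the anterior genes come on first, which is classically driven by RA. In blood, HOXA genes are known for their high levels in stem and progenitor cells and in leukaemias with MLL fusions. PML-RARA leukaemias are known for low HOX levels.

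In both tables the coordinates are those of build hg18. The HOXA members spanned chr7:27106499-27206250, the HOXB members chr17:43961806-44161110, the HOXC members chr12:52618843-52736081 and the HOXD members chr2:176596615-176774295. HOXA3 to HOXA6 share 1 locus span, as do all 9 HOXD genes, so those spans are not each gene's own. HOXC5 also shares its span with the joint row of HOXC4 and HOXC6, and HOXB6 with the locus AC103702.3.

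All members carry a homeobox, the stretch of 180 bases that encodes the DNA-binding homeodomain. It is shown for 3 genes: HOXA10 and HOXD13, which had the highest levels without treatment, and HOXC10, which stood higher in both KO libraries than in both WT libraries. Sequences are from GENCODE 29 transcripts, build GRCh38, which is not the build of the tables. HOXA10 is at chr7:27171947-27172126 (minus strand), HOXC10 at chr12:53989219-53989398 (plus) and HOXD13 at chr2:176094524-176094703 (plus), each within 1 coding exon. Capitals mark the 18 bases that encode the conserved core of the third helix, which contacts DNA.
HOXA10: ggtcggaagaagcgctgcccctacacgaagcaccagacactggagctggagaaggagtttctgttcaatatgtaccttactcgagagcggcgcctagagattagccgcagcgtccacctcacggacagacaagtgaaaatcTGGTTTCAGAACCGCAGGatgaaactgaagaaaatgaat
HOXC10: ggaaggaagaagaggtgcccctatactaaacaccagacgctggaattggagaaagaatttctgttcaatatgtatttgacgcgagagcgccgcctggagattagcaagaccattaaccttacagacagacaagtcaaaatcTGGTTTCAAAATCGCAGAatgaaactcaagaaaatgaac
HOXD13: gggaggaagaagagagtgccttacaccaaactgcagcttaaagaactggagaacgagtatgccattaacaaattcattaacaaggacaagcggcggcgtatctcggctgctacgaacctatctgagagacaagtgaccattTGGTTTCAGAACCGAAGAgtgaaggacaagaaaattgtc
HOXA10 and HOXC10, which are paralogs of each other, were identical at 81.7% of the bases. HOXD13 was identical to HOXA10 at 57.2% and to HOXC10 at 58.3%. Over all 630 pairs of members identity ran between 47.8% and 91.1%, with a median of 61.1%.

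Those differences bear on how well reads separate the members. For 14 of the 36 genes, the protein-coding transcripts share no stretch of 50 bases with a transcript of another annotated gene on either strand, among them HOXA2, HOXB9, HOXC9, HOXC11 and HOXD13. HOXA10 shares 27.9% of the stretches of 50 bases, HOXA11 29%, HOXA4 40.0% and HOXA7 62.7%, in each case with antisense or other overlapping transcripts of the cluster. HOXA13 shares 0.8% and HOXC10 6.2%. The labels do not say that reads were counted by strand, so reads of these genes and of their antisense partners cannot be told apart.

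Most of the HOX genes were listed at 0 or at low levels in NB4 cells. FPKM, fragments per kilobase of transcript scaled to the mapped reads, is a level per length, so genes can be set side by side. Of the 36 members, 26 stayed below 1 FPKM in every value they had, and 11 of these were listed at 0 throughout. Per library 5 to 8 members reached 1 FPKM, against 54.5% to 57.2% of protein-coding genes. The sets come from tables made separately, so levels were set side by side across them and tested only within each. Taken by set, 29 members stayed below 1 FPKM in the 4 libraries of the knockout set and 27 in the 5 treatment libraries.

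Not every member had a value in every library. HOXA3 to HOXA6 have no value in the combination, DMSO and RA 1 uM libraries, and the 9 HOXD genes have none at RA 0.01 uM, where the authors' table gives a failed status. Of the 23 members with all 9 values, 16 stayed below 1 FPKM and 4 reached it in each of the 9 libraries, namely HOXA10, HOXA11, HOXA13 and HOXC10.

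The genes at 1 FPKM or more lay mostly at the posterior side. HOXA had 5 of 10 members at 1 FPKM or more in some library, HOXC 3 of 7, HOXB 1 of 10 and HOXD 1 of 9. By paralog number they were 1 of 7 members numbered 1 to 3, 1 of 13 numbered 4 to 8, and 8 of 16 numbered 9 to 13. The HOXB genes other than HOXB9 did not exceed 0.0802 FPKM (HOXB7, KO 1), and 5 of the 10 were listed at 0 throughout. The HOXD genes other than HOXD13 did not exceed 0.361 FPKM (HOXD12, RA 1 uM).

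**Figure D1:**
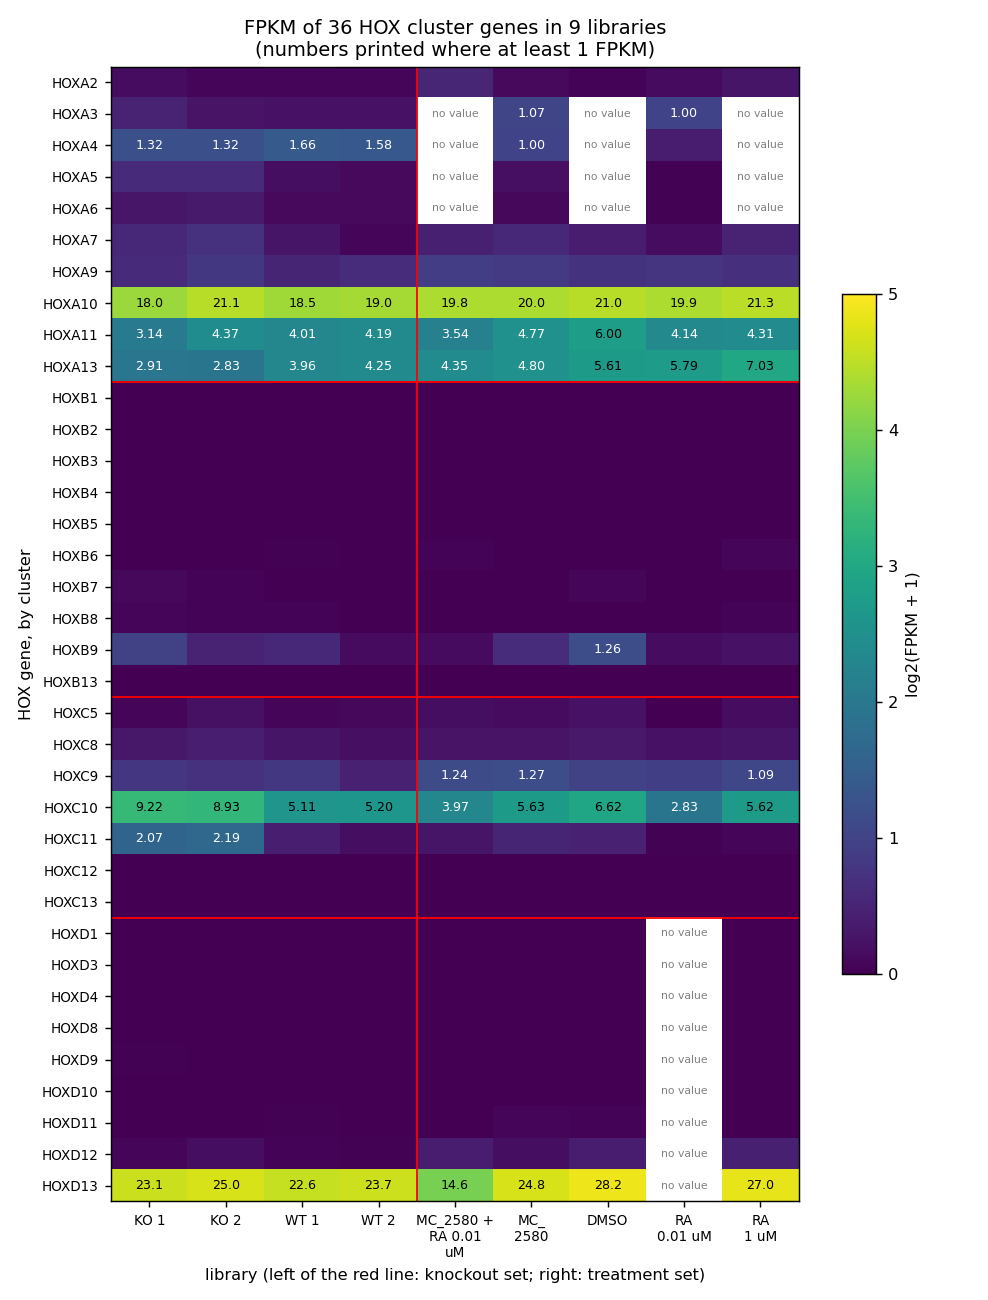
Heat map of log2(FPKM + 1) for the 36 HOX genes (rows, by cluster) in the 9 libraries (columns), with the FPKM printed where it was at least 1 and white cells where there is no value. Rows that stand out are HOXA10 at 18.01 to 21.3 FPKM, HOXD13 at 14.6 to 28.2, and HOXC10, which reaches 9.22 in KO 1.

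The highest member in most libraries was HOXD13, a limb and urogenital patterning gene that is also a fusion partner of NUP98 in leukaemia. It had 23.1 and 25.0 FPKM in the KO libraries and 22.6 and 23.7 in WT. In the treatment set it had 14.6 FPKM in the combination, 24.8 in MC_2580, 28.2 in DMSO and 27.0 at RA 1 uM. The combination was thus the lowest of its 8 values, while KO and WT overlapped. The combination differed from DMSO by -0.90 in log2(FPKM + 1), short of 2-fold.

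HOXA10, which is known to regulate myeloid progenitors, differed little between libraries. It had 18.01 and 21.1 FPKM in KO, 18.5 and 19.0 in WT, 19.8 in the combination, 20.0 in MC_2580, 21.0 in DMSO, 19.9 at RA 0.01 uM and 21.3 at RA 1 uM. The treatment values lay within or just above the range of the knockout set. Its largest difference from DMSO was -0.08 in log2(FPKM + 1), in the combination.

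The remaining posterior HOXA genes were lower. HOXA11, a limb and reproductive tract patterning gene, had 3.14 and 4.37 FPKM in KO, 4.01 and 4.19 in WT, 3.54 in the combination, 4.77 in MC_2580, 5.997 in DMSO, 4.14 at RA 0.01 uM and 4.31 at RA 1 uM. DMSO was the highest of the 9, and no comparison reached 2-fold. HOXA13, its posterior neighbour, had 4.35 FPKM in the combination, 4.796 in MC_2580, 5.61 in DMSO, 5.79 at RA 0.01 uM and 7.03 at RA 1 uM, again within 2-fold. HOXA9, which MLL fusions are known to activate, stayed between 0.436 and 0.868 FPKM in all 9 libraries.

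HOXC9 lay near the limit in the treatment set, with 1.24 FPKM in the combination, 1.27 in MC_2580, 0.952 in DMSO, 0.897 at RA 0.01 uM and 1.09 at RA 1 uM. In the knockout set it had 0.740 and 0.642 FPKM in KO and 0.743 and 0.376 in WT. HOXA3, known from neck and pharyngeal patterning, had 0.417 and 0.194 FPKM in KO and 0.187 and 0.179 in WT. In the treatment set HOXA3 had values of 1.07 FPKM in MC_2580 and 1.00 at RA 0.01 uM, and HOXA4 of 1.00 and 0.315 FPKM in the same libraries, with none in DMSO. HOXA3 to HOXA6 could therefore not be compared with DMSO. At RA 0.01 uM HOXA5 had 0.0202 FPKM, against 0.155 in MC_2580, a pair that the authors' deposited table calls.

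With 1 library per treatment there is no test, and a gene was called where FPKM + 1 differed by 2-fold, provided that either library had at least 1 FPKM. In these bulk libraries, fewer cells with a transcript and less transcript per cell cannot be told apart.

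HOXB9, a posterior gene of the HOXB cluster, was lower in the libraries with RA than in DMSO. It had 1.26 FPKM in DMSO, 0.114 at RA 0.01 uM and 0.179 at RA 1 uM, and 0.109 in the combination against 0.558 in MC_2580. DMSO was the highest of the 9 libraries, and the 3 libraries with RA lay lowest in the treatment set. HOXB9 was past 2-fold at RA 0.01 uM, by -1.02 in log2(FPKM + 1), and in the combination, by -1.03, but not at RA 1 uM, by -0.94. It passed the filter through the DMSO library only, in which it was highest. The scale understates changes of low genes: the plain FPKM ratio of RA 0.01 uM to DMSO was 0.09. Plain values also lay apart within WT, at 0.463 FPKM in WT 1 and 0.109 in WT 2. WT 2, for which no drug is named, was thus as low as the combination.

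HOXB9 was the 1 member past 2-fold of 5 tested at RA 0.01 uM, where 9.41% of all loci tested were past it and 3.99% were lower. It was also the 1 of 7 tested in the combination, against 13.7% of all loci in either direction and 4.64% lower. At RA 1 uM 0 of the 7 members tested were past 2-fold, against 10.7% of all loci. The RA 0.01 uM call was lost when the libraries were rescaled to a median difference of 0 (-0.96). In the knockout set, HOXB9 had 0.955 and 0.392 FPKM in KO and 0.463 and 0.109 in WT, which overlapped. Its differences between libraries of 1 group were 0.49 (KO) and 0.40 (WT). The authors' deposited table calls HOXB9 for all 3 libraries with RA against DMSO.

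HOXC10, a posterior gene of limb and lumbar patterning, was lowest at the low RA dose. It had 6.62 FPKM in DMSO, 2.83 at RA 0.01 uM and 5.62 at RA 1 uM, and 3.97 in the combination against 5.63 in MC_2580. The values did not follow the RA dose. Its difference from DMSO at RA 0.01 uM, -0.99, lay just short of 2-fold. From RA 0.01 uM it differed by 0.79 at RA 1 uM and by 0.38 in the combination.

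HOXC11, the posterior neighbour of HOXC10, had 0.368 FPKM in DMSO, 0.0258 at RA 0.01 uM and 0.0631 at RA 1 uM, and 0.220 in the combination against 0.436 in MC_2580, and the authors' deposited table calls it for RA 0.01 uM against DMSO and against MC_2580.

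HOXA2, a hindbrain and pharyngeal arch patterning gene, differed between treatments at trace levels. It had 0.0328 FPKM in DMSO, 0.105 at RA 0.01 uM and 0.220 at RA 1 uM, and 0.455 in the combination against 0.0989 in MC_2580. The values climbed with the RA dose and were highest in the combination. All of them were below 1 FPKM, so HOXA2 was not tested by the 2-fold rule. In the authors' deposited table it is called for the combination against DMSO. In the knockout set it had 0.118 and 0.0453 FPKM in KO and 0.0610 and 0.0490 in WT, which overlapped.

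For the HOXB and HOXD genes numbered 1 to 3, values at or near 0 left no order to compare. HOXB1, a known RA target in the hindbrain, was listed at 0 in all 9 libraries, as was HOXB2. HOXB3 did not exceed 0.00904 FPKM, and in the treatment set it was above 0 only at RA 1 uM (0.00568). HOXD1 and HOXD3 were listed at 0 in the 8 libraries with a value.

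**Figure D2:**
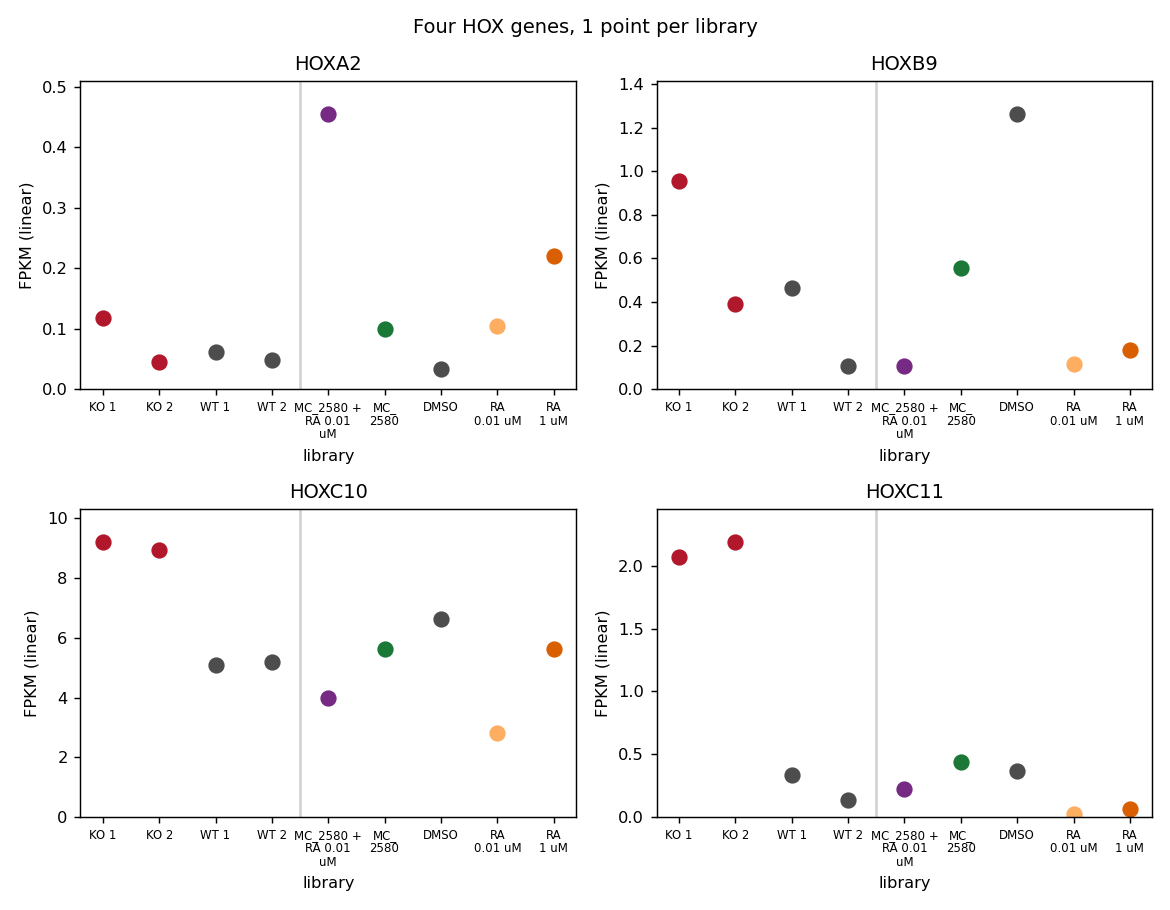
FPKM of HOXA2, HOXB9, HOXC10 and HOXC11 (linear axes, 1 point per library; left of the grey line the knockout set, right of it the treatment set). HOXB9 has its highest value, 1.26, in DMSO, HOXA2 is highest in the combination at 0.455, and HOXC10 and HOXC11 are lowest at RA 0.01 uM and highest in the KO libraries.

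MC_2580 alone called no member described: 0 of 7 tested were past 2-fold, where 3.95% of all loci were. Between RA 1 uM and RA 0.01 uM 0 of 5 were, against 3.61% of loci, and between the combination and RA 0.01 uM 0 of 5, against 6.97%. For MC_2580 and DMSO the members' median difference was -0.19 in log2(FPKM + 1), that of all loci -0.02. In the 3 comparisons of RA with DMSO the members' medians were -0.45 at RA 0.01 uM, -0.06 at RA 1 uM and -0.62 in the combination, and those of all loci -0.06, -0.04 and -0.02. The members' medians cover unlike sets: 5 at RA 0.01 uM, and 7 in the others, where HOXC9 and HOXD13 were added. Where tested against DMSO, HOXC9 passed the filter through the treated library only and had to be higher. HOXB9 passed it through DMSO only and had to be lower. All comparisons with DMSO share its library. Between the 2 KO libraries 8.59% of loci were past 2-fold, and between the 2 WT libraries 9.06%; no member described was.

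**Figure D3:**
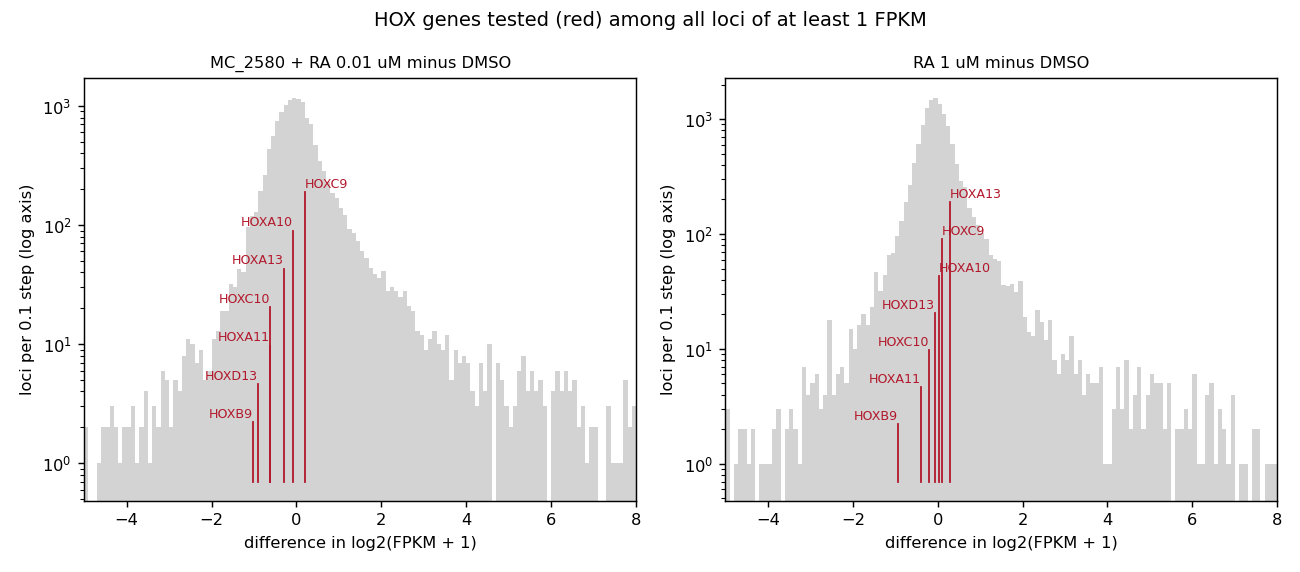
Distribution of the difference in log2(FPKM + 1) from DMSO over all loci that reached 1 FPKM in either library (grey, log axis of loci per 0.1 step), for the combination and for RA 1 uM, with the HOX genes tested in red (the height of a red line only separates the names). The 7 members lie between -1.03 (HOXB9) and 0.20 (HOXC9) in the combination, and between -0.94 (HOXB9) and 0.28 (HOXA13) at RA 1 uM. HOXC9 passed the filter through the treated library only, and HOXB9 through DMSO only.

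For KO against WT the targeted gene is described before the HOX genes. KDM1A, which encodes LSD1 (AOF2 in the tables), had 14.0 and 16.8 FPKM in KO and 49.8 and 66.6 in WT. The KO values lay below both WT values (log2 difference -1.84, SE 0.23, limma adjusted p = 0.158). The targeted gene itself was thus not called, so the lack of a call does not show that a gene was unchanged. Over the 13157 loci that entered the limma fit, 15 (0.114%) had an adjusted p under 0.05, and 942 had an unadjusted p under 0.05 (7.16%).

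No HOX gene described passed. Of the 7 members tested, 0 had an adjusted p under 0.05 in limma, and 2 had an unadjusted p under 0.05, HOXC10 and HOXC11. In 2 of the 7 (HOXC10 and HOXC11) both KO values lay above both WT values, in 2 (HOXA4 and HOXA13) both lay below, and 3 (HOXA10, HOXA11 and HOXD13) overlapped. Of all loci tested, 34.0% did not overlap, 17.9% with KO above and 16.1% with KO below. The members' median log2 difference was 0.05, that of all loci -0.02.

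HOXC10 had 9.22 and 8.93 FPKM in KO, against 5.11 and 5.20 in WT. The gap was wide beside the spread within each group, but the log2 difference of 0.71 (SE 0.15) missed the threshold over all loci (limma adjusted p = 0.393). HOXC11 had 2.07 and 2.19 FPKM in KO, against 0.332 and 0.137 in WT (log2 difference 1.35, SE 0.26, limma adjusted p = 0.381). HOXC11 passed the filter through the KO group only, so a tested value of it had to be higher in KO.

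HOXA13 had 2.91 and 2.83 FPKM in KO, against 3.96 and 4.25 in WT (log2 difference -0.40, SE 0.17, limma adjusted p = 0.778). HOXA4, a central gene, had 1.32 FPKM in each KO library, against 1.66 and 1.58 in WT (-0.17, limma adjusted p = 0.924). Neither difference passed.

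The central HOXA genes next to HOXA4 were below the filter. HOXA5, known as a regulator of myeloid progenitors, had 0.520 and 0.527 FPKM in KO, against 0.142 and 0.0855 in WT. HOXA6 had 0.234 and 0.288 FPKM in KO, against 0.0970 and 0.0878 in WT. HOXA7 had 0.496 and 0.634 FPKM in KO, against 0.220 and 0.0621 in WT. In a limma fit without the filter their adjusted p-values were 0.389, 0.448 and 0.732. They are 3 of the 9 members whose KO values both lay above WT, while 2 lay below, of 24 members with a value above 0 in the knockout set. Over all loci with such a value 17.4% lay above and 15.0% below.

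**Figure D4:**
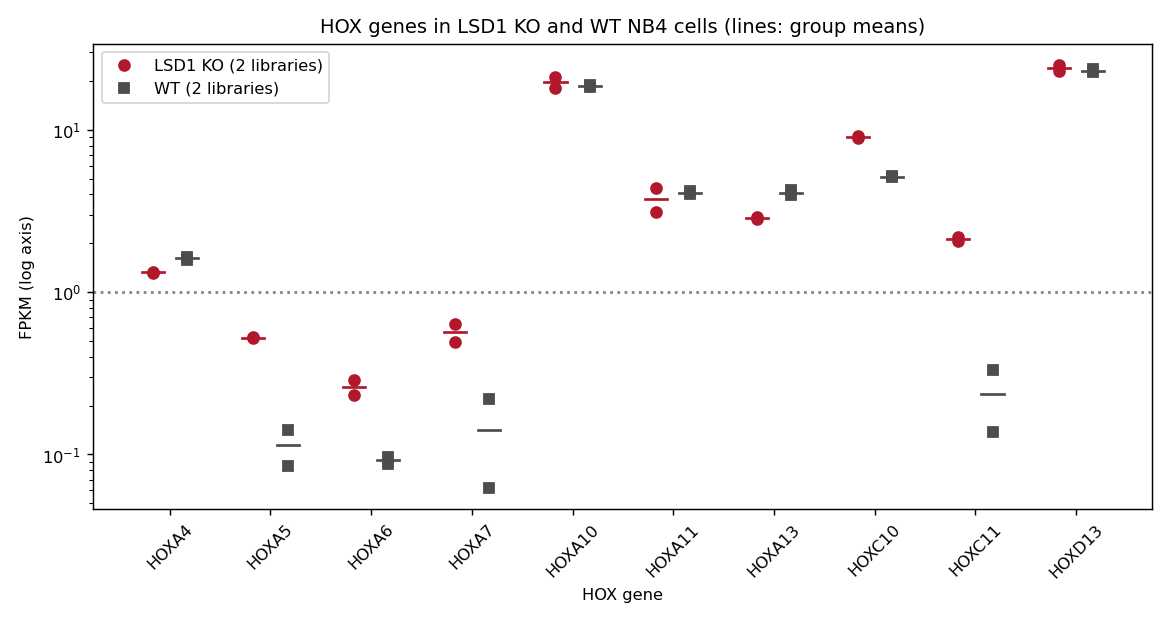
FPKM (log axis) of 10 HOX genes in the KO libraries (red circles, left) and the WT libraries (grey squares, right), with lines at the group means and the dotted line at 1 FPKM. HOXC10 and HOXC11 stand higher in KO and HOXA13 lower, and HOXA10 and HOXD13 overlap.

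Along the HOXA cluster, among the members described, the largest differences in KO lay at HOXA7 and HOXA5, by 0.46 and 0.45 in log2(FPKM + 1), and the largest in the combination at HOXA11, by -0.62. On the HOXC cluster HOXC10 and HOXC11 differed by 0.71 and 1.35 in KO, and HOXC10 differed by -0.62 in the combination and by -0.20 in MC_2580. The sets were processed into separate tables, so these differences were set side by side and not tested against each other.

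**Figure D5:**
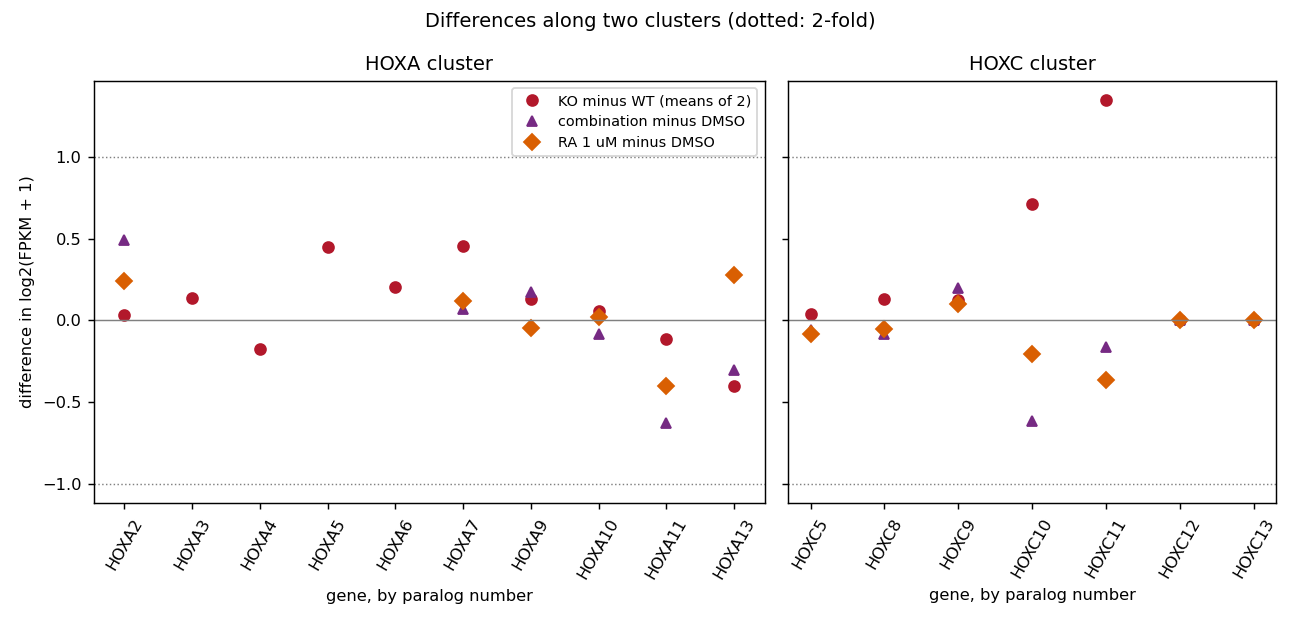
Difference in log2(FPKM + 1) for each member of the HOXA and HOXC clusters, ordered by paralog number, for KO minus WT (circles), the combination minus DMSO (triangles) and RA 1 uM minus DMSO (diamonds); dotted lines mark 2-fold and absent points have no value. HOXC11 is past 2-fold in KO with no adjusted p under 0.05, and every other point lies within 2-fold.

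Few other loci inside the cluster spans reached 1 FPKM. The joint row of HOXC4 and HOXC6 had 4.45 FPKM in the combination, 2.57 in MC_2580, 1.57 in DMSO, 2.27 at RA 0.01 uM and 2.995 at RA 1 uM. It was past 2-fold in the combination against DMSO, by 1.08 in log2(FPKM + 1). In the knockout set it had 2.597 and 2.28 FPKM in KO, against 0.996 and 0.870 in WT (log2 difference 0.83, SE 0.22, limma adjusted p = 0.550). Like HOXC11, this row passed the filter through the KO group only, so it had to be higher in KO. The microRNA loci of the clusters, among them those of miR-10a and miR-10b, were listed at 0 in every value they had. That of miR-10b has no value at RA 0.01 uM. These values do not give the levels of the mature microRNAs, which were not measured.

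The pseudogene RPLP1P4 within the HOXD span had 2918 FPKM in the combination, 3208 in MC_2580, 2675 in DMSO and 2965 at RA 1 uM, but 14.2 to 23.7 in the knockout set. The cause of this difference between the tables was not tested.

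The set of RefSeq promoters used here covers 19 of the 36 members, with HOXB9, HOXC10 and HOXC11 not among them. Of the 26 promoters listed, 7 belong to HOXA3. The hexamer AGGTCA, which retinoic acid receptors bind in pairs, searched on both strands in the 250 bases before each start (build GRCh38.p14), occurred in 0 of these 26 and in 12.1% of all 35116 promoters. Only these exact letters were searched. A direct repeat of them with 5 bases between occurred in 1 of all 35116 promoters. The search therefore cannot show whether HOX genes have sites for these receptors. The 26 promoters of members held a median of 19.5 CpG, against 11 in all promoters, at a similar GC content (58.8% and 58.0%). HOXD13, for example, had 21 CpG and HOXA2 had 8.

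Partners and regulators of HOX genes differed little between treatments, with exceptions. The median difference of RA 1 uM from DMSO was 0.31 in log2(FPKM + 1) over 4 tested HOX cofactors, -0.22 over 15 Polycomb genes and -0.01 over 13 HOX activators, against -0.04 over all loci, of which 10.7% were called. Of 7 measured HOX cofactors, 0 of 4 tested were called at RA 1 uM. MEIS2, a DNA-binding partner of HOX proteins, was called higher in the combination, with 9.02 FPKM against 3.94 in DMSO. Of all loci, 9.05% were called higher there. With RA alone MEIS2 was also higher, short of 2-fold, with 7.29 FPKM at RA 0.01 uM and 7.88 at RA 1 uM. In MC_2580 it had 3.73. Of 15 tested Polycomb genes, which keep HOX clusters silent, 1 was called at RA 1 uM: CBX2 fell to 5.14 FPKM there, against 12.6 in DMSO. EZH2, the histone methyltransferase of the complex, had 48.5 FPKM at RA 1 uM and 53.6 in DMSO.

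Of 13 tested HOX activators 0 were called at RA 1 uM. KDM6B (JMJD3 in the tables), a demethylase of the Polycomb mark, was called higher at RA 0.01 uM and in the combination, with 3.84 FPKM in DMSO, 10.7 at RA 0.01 uM, 8.65 at RA 1 uM and 11.8 in the combination. Its difference at RA 1 uM, 0.99, lay just short of 2-fold. MLL, which keeps HOX genes active, had 11.2 FPKM at RA 1 uM and 15.96 in DMSO. In KO against WT, limma called 0 genes of these 3 lists. An unadjusted p under 0.05 was found for 0 of 3 cofactors, 1 of 15 Polycomb genes and 2 of 13 activators tested. Over all loci tested, 7.16% had one.

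Most of the known RA targets tested were higher in RA than in DMSO. Over 15 tested direct RA targets the median difference of RA 1 uM from DMSO was 3.17 in log2(FPKM + 1), against -0.04 over all loci. This median includes 7 targets that passed the filter only through the RA library and so had to be higher. Of the 15, 12 were called higher, where 6.63% of all loci tested were. Of these 12, those same 7 were below 1 FPKM in DMSO, CYP26A1 and RARB among them. Of the 8 targets tested with at least 1 FPKM in DMSO, 5 were called higher. RET and CRABP2 went the other way. RET had 15.9 FPKM at RA 1 uM against 19.0 in DMSO, and CRABP2 0.940 against 1.00. CYP26A1, which degrades RA, had 0.0396 FPKM in DMSO, 2.49 at RA 0.01 uM and 37.4 at RA 1 uM, and 14.2 in the combination against 0.0178 in MC_2580. CYP26A1 was therefore higher at RA 1 uM than in the combination, the opposite order to HOXA2. RARB, an RA receptor gene, had 0.156 FPKM in DMSO, 1.07 at RA 0.01 uM and 7.51 at RA 1 uM, and 1.66 in the combination against 0.139 in MC_2580.

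Of 9 tested granulocyte maturation genes 8 were called higher at RA 1 uM, and 11 of 11 in the combination. Of these, 1 and 3 passed the filter only through the treated library. Over all loci tested, 6.63% were called higher at RA 1 uM and 9.05% in the combination. ITGAM, the surface integrin CD11b, had 2.68 FPKM in DMSO, 22.9 at RA 0.01 uM and 42.5 at RA 1 uM, and 136 in the combination against 13.9 in MC_2580. Like HOXA2 it was highest in the combination.

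As a check of the cell label, 5 of 6 promyelocyte markers were above 1 FPKM in every library, MPO at 2454 to 6518 FPKM, but the neutrophil elastase gene (ELA2 in the tables) did not exceed 0.242. Of 14 measured markers of other cell types, 3 reached 1 FPKM anywhere, namely PECAM1, COL1A1 and CD8A. The highest was PECAM1, an endothelial marker that myeloid cells are also known to carry. It had 16.4 and 18.8 FPKM in KO, against 8.58 and 7.55 in WT (limma adjusted p = 0.269). In the treatment set PECAM1 had 11.4 FPKM in DMSO, 42.3 at RA 0.01 uM, 34.9 at RA 1 uM and 15.8 in MC_2580, with no value in the combination, and was past 2-fold at both RA doses. VWF, another endothelial marker, did not exceed 0.0686 FPKM. The other 13 markers summed to 2.62 FPKM at RA 1 uM and 1.19 in DMSO, and to between 0.514 and 1.89 in the other 7 libraries, with 6 or 7 of the 13 listed at 0 in each. At RA 1 uM the collagen genes COL1A1 and COL1A2 had 1.18 and 0.355 FPKM, against 0.0061 and 0 in DMSO. In the combination, where HOXA2 was highest, COL1A1 had 0.158 FPKM and COL1A2 was listed at 0. The part of these markers in the HOX values was not tested.

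The sources used here give no read totals. Relative depth was read from the steps between low values: compared with WT 1, each FPKM stood for 1.04 times the reads in KO 1, 1.33 times in KO 2 and 1.65 times in WT 2. Compared with DMSO it stood for 0.77 times the reads in the combination, 0.88 in MC_2580, 0.73 at RA 0.01 uM and 0.89 at RA 1 uM. The number of reads behind a level is therefore not known, and no counting interval was computed.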

How the data were processed

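RNA-seq of NB4 cells was taken from 2 tables. The authors deposited FPKM in the layout of Cuffdiff, per the file headers; the submitters' processing notes name TopHat 1.3.1, TopHat2 2.0.10, CASAVA 1.8, Cufflinks, Cuffdiff and build hg18, with no role given. Libraries were made with a TruSeq V2 kit, per the labels. The constant of 0.001 FPKM that the authors added to every value of the knockout table was taken off, and treatment values of a failed status were treated as missing. The deposited p-values were not used, and the authors' significance calls only where named. Starts count from 0 in the deposited tables, and 1 was added.

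For KO against WT, limma 3.58.1 (trend; R 4.3.3) was fitted to log2(FPKM + 1) of loci that averaged 1 FPKM or more in either group, and p-values were adjusted over all of them by Benjamini and Hochberg. Treatments, 1 library each, had a 2-fold size rule and no test. Python 3.11.15, pandas 2.3.3 and numpy 2.4.6 were used. The limma step was tested on simulated data. Named were all members of at least 1 FPKM in any library, members past 2-fold and neighbours of at least 1 FPKM. Also named were examples from the lists (those past 2-fold at RA 1 uM or among the highest). HOXA2, HOXA5 to HOXA7, HOXA9 and further members given as maxima or at 0 were chosen after their values were seen. So were MEIS2, KDM6B, EZH2, MLL, RARB, CYP26A1, ITGAM, PECAM1, VWF, COL1A1, COL1A2 and CD8A. The members and lists were chosen with earlier results of these data known. Of the genes that match the rule 1, and 1 HOX cofactor, are not reported here.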

Additional observations from a re-analysis of the deposited data

How the results depend on the processing

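Over all loci, the 15 calls of KO against WT (limma) became 38 with a pseudocount of 0.1 FPKM, 0 with no filter on low values, 0 with a filter at 0.1 FPKM, and 0 to 0 when each library was left out in turn, which leaves 1 library assumed to vary like the other group. No HOX gene described passed under any of these or under quantile normalization. The replicate numbers are not shown to pair the libraries, with 2 pairs whose deviations correlated at 0.21; with the replicate block 0 loci and 0 HOX genes were called. Without KO 2, the log2 difference of HOXA10 turned to -0.055 (range over the left-out libraries -0.055 to 0.17) and that of HOXD13 to -0.0014 (-0.0014 to 0.11); without KO 1, that of HOXA11 turned to 0.074 (-0.30 to 0.074). None of these 3 was called.

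The number of HOX genes past 2-fold depended on the pseudocount. At 0.1 FPKM it was 1 in MC_2580 (HOXB9), 2 at RA 0.01 uM (HOXB9 and HOXC10) and 1 at RA 1 uM (HOXB9). With a filter at 0.1 FPKM too, chosen after seeing the data, it was 1, 4 and 3, and 2 in the combination, 2 between the RA doses and 4 for the combination against RA 0.01 uM. At 4-fold it was 0 at RA 0.01 uM and 0 in the combination. Rescaling to a median of 0 left 0 at RA 0.01 uM. Counting only members with all 9 values, also chosen later, 16 stayed below 1 FPKM, and with a limit of 0.1 FPKM 18 did in the knockout set. The causes were not tested. HOXB9 was called in the combination under each 2-fold setting.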

Other observations

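A list of homeobox genes of blood outside the clusters had 12 genes measured, of which 8 were tested. These 8 include LMO2, which has no homeobox. HLX, a blood homeobox gene, was the 1 of 8 called at RA 1 uM, where 10.7% of all loci were. It was higher there, with 9.96 FPKM against 4.30 in DMSO, and had 9.61 in the combination. HHEX had 50.0 FPKM in DMSO, 15.9 at RA 0.01 uM and 28.7 at RA 1 uM, and 70.3 in the combination against 57.8 in MC_2580. HHEX was thus lowest at the low RA dose, as HOXC10 was, but highest in the combination. In KO against WT, limma called 0 of the 8 genes tested, LMO2 included. An unadjusted p under 0.05 was found for 0 of them, against 7.16% of all loci tested.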
